A study of Mus musculus with 28 samples.

Results

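The probes described here were lower without doxycycline (Dox) than with it in mouse embryonic stem (ES) cells carrying a Tcl1 transgene, and higher without Dox in cells carrying a Ctbp2 transgene. They number 78 of the 42006 probes of a 2-colour Agilent array. The members were chosen by their measured values. Of the 42006 probes, 23703 were well above background in the sample channel on all 28 arrays. Of those, 16737 also had a mean log2 ratio of sample over reference between -1 and 2 with Dox, and a range of the 7 lines' means with Dox under 1. From these, the choice took probes with a change of -0.25 or lower in the Tcl1 line, of 0.25 or higher in the Ctbp2 line and under 0.25 in the Etv5 line, with arrays with and without Dox not overlapping in the Tcl1 and Ctbp2 lines. A change is the mean log2 ratio without Dox minus that with Dox, from the scanner software's processed signals, called the processed ratio. The opposite directions in these 2 lines are thus the choice itself and are described without a test.

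Each of the 7 lines is 1 clone of male ES cells, strain 126S6/SvEvTac per the labels, at passage 25, in which Dox keeps a transgene off and its removal turns the transgene on. The transgenes were Tcl1 (clone 6), Ctbp2 (clone 23), Etv5 (clone 24), Tbx3 (clone 15), Jarid2 (clone 37), Jmjd2c (clone 14) and Mettl5 (clone 15). All cells, with and without Dox, grew on gelatin in medium with LIF, were plated with Dox at 0.2 µg/ml and puromycin at 1.5 µg/ml, with harvest at 48 h from the last wash. A line was grown in 6 wells, of which 3 stood for each condition, and 2 samples per line and condition were arrayed. The labels do not name separate thaws or clones for them, so that p-values measure only the spread between these samples. On each array Cy3 marked the sample and Cy5 a common reference, which the sample labels describe as RNA of 11 cultured cell lines mixed 2 to 1 with ES cell RNA. The series text gives the ES part another name.

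Tcl1 is a co-activator of the kinase Akt and is abundant in undifferentiated ES cells. Ctbp2 is a corepressor that DNA-binding factors recruit to genes, where it brings in chromatin-modifying enzymes. Of the other transgenes, Etv5 and Tbx3 encode DNA-binding transcription factors of the ETS and T-box families. Jarid2 acts with the Polycomb machinery, Jmjd2c removes methyl groups from histones, and Mettl5 methylates ribosomal RNA.

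The files used here pair no probe with a gene, so a member is identified by its probe ID and its 60-base sequence. Gene groups, cell type markers and the level of each transgene were not analysed here, and the lines and conditions rest on the labels. The following 10 sequences are the members with the largest value of the smaller of their 2 changes, in that order. All bases are in lower case because no part of a probe is singled out.
Z00074476-1: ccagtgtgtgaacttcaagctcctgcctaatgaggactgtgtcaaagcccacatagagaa
Z00023296-1: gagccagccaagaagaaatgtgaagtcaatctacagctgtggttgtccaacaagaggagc
Z00071725-1: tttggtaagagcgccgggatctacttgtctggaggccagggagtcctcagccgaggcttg
Z00076476-1: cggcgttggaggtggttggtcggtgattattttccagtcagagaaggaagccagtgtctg
Z00031005-1: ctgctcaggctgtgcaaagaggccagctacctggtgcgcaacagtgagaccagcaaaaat
Z00041793-1: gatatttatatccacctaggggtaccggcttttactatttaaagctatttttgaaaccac
Z00019256-1: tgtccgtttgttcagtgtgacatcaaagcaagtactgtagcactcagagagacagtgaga
Z00035146-1: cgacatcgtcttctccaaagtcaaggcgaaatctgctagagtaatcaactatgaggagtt
Z00010868-1: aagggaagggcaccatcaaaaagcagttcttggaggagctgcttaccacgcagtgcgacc
Z00075588-1: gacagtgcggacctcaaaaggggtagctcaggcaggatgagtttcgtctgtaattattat
A further 5 sequences belong to the members that passed a test in a line whose change had no threshold in the choice.
Z00005074-1: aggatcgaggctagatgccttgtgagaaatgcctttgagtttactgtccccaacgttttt
Z00024913-1: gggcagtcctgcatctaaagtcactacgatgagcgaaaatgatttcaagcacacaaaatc
Z00049051-1: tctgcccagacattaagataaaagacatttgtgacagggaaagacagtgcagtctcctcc
Z00058380-1: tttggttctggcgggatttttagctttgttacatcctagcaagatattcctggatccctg
Z00023546-1: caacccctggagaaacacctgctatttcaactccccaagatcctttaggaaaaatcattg

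No pair of the 78 members shared a run of 20 bases, among 3003 pairs on the same strand or on opposite strands. The members' median GC content was 45%, the same as that of all 16737 probes within the level limits. Their quartiles were higher, at 43.3% and 55% against 38.3% and 51.7%. Each member had 1 spot on the array, and 0 of 78 had a saturated or quality-flagged spot on any array. The choice required detection in Cy3 only, and 71 of 78 members were well above background in Cy5 on all arrays. The members were dimmer than the rest, with a median of the mean log2 Cy3 signal of 9.003 against 10.8. Their ratio with Dox was above 0, that is, higher in ES cells than in the reference, for 66 of 78 members (84.6%) and for 70.8% of all probes within the limits.

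Depth and spread over the series were as follows. Between 25428 and 28841 probes were well above background per array, and the correlation across probes between replicates was 0.971 to 0.997. The standard deviation of the difference between replicates was 0.22 to 0.24 (log2) in the Tbx3 line and 0.08 to 0.14 in the other lines. Each line lay on a slide of its own with Dox at array positions 1 and 2 and without Dox at positions 3 and 4, so position and Dox cannot be told apart there. The Tbx3 line is the exception, since its without-Dox replicate 1 was on another slide than its other 3 arrays.

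The members' processed ratio without Dox lay below that with Dox by a median of 0.40 in the Tcl1 line and above it by a median of 0.38 in the Ctbp2 line. The Tcl1 changes ranged from -0.85 to -0.25 and the Ctbp2 changes from 0.25 to 1.05. Over all 16737 probes within the limits the medians were 0.00 and -0.01. These shifts were mostly small. A Tcl1 change of at least 1.5-fold was measured for 10 members, a Ctbp2 change of that size for 16, and both for 3. In the Tcl1 line 0 members changed 2-fold, and in the Ctbp2 line 2 did. The median replicate standard deviation of the members was 0.09 in the Tcl1 line and 0.07 in the Ctbp2 line, against 0.08 and 0.04 for all probes within the limits.

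Z00019256-1 was a bright member whose arrays agreed closely. Its processed ratios in the Tcl1 line were -0.49 and -0.47 with Dox and -1.01 and -0.96 without. In the Ctbp2 line they were -0.14 and -0.10 with Dox and 0.37 and 0.40 without. Over the 20 arrays of the other 5 lines the ratio ran from -0.59 to 0.35, median -0.14. The Tcl1 arrays without Dox lay below all of those, and the Ctbp2 arrays without Dox just above them.

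Z00010868-1, also bright, showed processed ratios of 0.73 and 0.67 with Dox and 0.27 and 0.14 without in the Tcl1 line. The Ctbp2 line gave 0.84 and 0.81 with Dox and 1.55 and 1.56 without. Its range over the other 5 lines was 0.88 to 1.75, median 1.05. All Tcl1 arrays were below that range, those with Dox included, and the Ctbp2 arrays without Dox were inside it.

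Z00075588-1 measured 1.71 and 1.76 with Dox and 1.14 and 1.14 without in the Tcl1 line. In the Ctbp2 line it measured 0.79 and 0.84 with Dox and 1.33 and 1.28 without. The other 5 lines spanned 0.77 to 1.71, median 1.07. Here neither condition without Dox left the span of the other lines, and the Tcl1 arrays with Dox were at or above its top.

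Z00031005-1 had values of 0.13 and 0.19 with Dox and -0.47 and -0.30 without in the Tcl1 line. Those of the Ctbp2 line were -0.12 and -0.07 with Dox and 0.57 and 0.52 without. The other 5 lines lay at -0.47 to 0.25, median -0.22. In the Ctbp2 line both arrays without Dox exceeded every array of the other 5 lines, whereas of the Tcl1 arrays without Dox 1 was level with the lowest of them.

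Z00074476-1 had the largest smaller change of all members. The Tcl1 line gave 1.105 and 1.40 with Dox and 0.69 and 0.54 without. The Ctbp2 line gave 1.097 and 1.33 with Dox and 2.16 and 2.13 without, and the other 5 lines 1.29 to 2.29, median 1.70. The Tcl1 arrays without Dox were the lowest of the series for this probe. Its Etv5 change of 0.249 was just inside the limit of 0.25.

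Z00035146-1 stood at 0.39 and 0.43 with Dox and -0.12 and -0.06 without in the Tcl1 line. In the Ctbp2 line it stood at 0.72 and 0.88 with Dox and 1.54 and 1.46 without. Across the other 5 lines it ran from 0.71 to 1.60, median 0.95. All 4 Tcl1 arrays lay below every array of the other 5 lines, and the fall without Dox took the ratio further down.

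Z00041793-1 ran at 0.23 and 0.30 with Dox and -0.16 and -0.33 without in the Tcl1 line and at 0.10 and -0.01 with Dox and 0.62 and 0.76 without in the Ctbp2 line. The other 5 lines ranged over -0.14 to 0.96, median 0.31. The spread between those lines was wider than either change.

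The remaining 3 were the dimmest of the 10, with mean log2 Cy3 signals of 6.06 to 6.35, and their replicates lay further apart. Z00074476-1, Z00041793-1 and Z00031005-1 above were also below the members' median of 9.003, at 7.85, 8.17 and 8.48. Z00023296-1 gave 1.50 and 0.55 with Dox and 0.39 and 0.39 without in the Tcl1 line, so that its replicates with Dox differed by more than its change. Z00071725-1 gave 2.47 and 2.02 with Dox and 1.47 and 1.84 without in the Tcl1 line, where the Cy3 signal changed by -0.07 and the Cy5 reference by 0.52. Z00076476-1 gave 0.94 and 1.26 with Dox and 2.09 and 1.80 without in the Ctbp2 line, where Cy3 changed by 0.35 and Cy5 by -0.50. For the last 2 named, the reference channel moved more than the sample channel, in the Tcl1 and in the Ctbp2 line. In the Ctbp2 line Z00071725-1 changed by 0.29 in Cy3 and by -0.364 in Cy5. In the Tcl1 line Z00076476-1 changed by -0.277 in Cy3 and by 0.28 in Cy5.

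Over all members, the Cy5 reference moved more than the Cy3 sample for 10 in the Tcl1 line and for 4 in the Ctbp2 line, although every array carries the same reference RNA. Its part in the choice of those members was not tested. In Cy3 alone, 78 of 78 members were lower without Dox in the Tcl1 line and 77 of 78 were higher in the Ctbp2 line. Of the members, 64 were past 0.25 in both. Cy3 is part of the ratio that chose the members, so these counts describe the choice. The median Cy3 change of all probes within the limits was -0.09 in the Tcl1 line.

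A second scale, with normexp background correction and loess normalization, is called the loess ratio below and carries the tests. On it the members' median change was -0.28 in the Tcl1 line and 0.29 in the Ctbp2 line. All 78 kept both signs, 69 kept arrays that did not overlap in both lines, and 39 were at or past 0.25 in both. The loess ratio came from the same arrays that chose the members, so these counts are no separate test of the directions. The offset of 50 added to every signal shrinks the ratios of dim spots by construction. For the dim Z00023296-1 the loess change in the Tcl1 line was -0.18 against -0.64 on the processed ratio, while for the bright Z00019256-1 it was -0.55 against -0.51.

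Probes lay close to each limit of the choice on both sides. The members nearest to the Tcl1 limit were Z00063668-1 and Z00023092-1 at -0.253 and -0.255, and the nearest probes outside were Z00062233-1 and Z00059987-1 at -0.249 and -0.248. At the Ctbp2 limit, Z00074921-1 and Z00064569-1 were inside at 0.251 and 0.255, and Z00027943-1 and Z00056647-1 outside at 0.247 and 0.239. At the Etv5 limit, Z00074476-1 and Z00023546-1 were inside at 0.249 and 0.244, and Z00073950-1 and Z00025540-1 outside at 0.252 and 0.256. Before the Etv5 limit was applied 90 probes met the rest of the choice. The mirror image, a Tcl1 rise with a Ctbp2 fall, was met by 44 probes, a rise in both lines by 68 and a fall in both by 67, each with no Etv5 limit. Each line taken alone, of the 16737 probes 802 fell and 684 rose in the Tcl1 line by the same limits. In the Ctbp2 line 641 rose and 504 fell. The joint counts were not tested against these totals.

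In the Etv5 line the choice set only an upper limit, and the members' median change there was -0.01, with 41 of 78 below 0 and 7 at -0.25 or lower. The range was -0.77 to 0.25 on the processed ratio, with quartiles of -0.136 and 0.065. Over all probes within the limits the median was 0 and the quartiles were -0.079 and 0.075. The shares of all those probes below 0 and at -0.25 or lower were not counted, so no background is given for these counts. Z00024913-1 was among the 7, with Etv5 values of 2.08 and 2.07 with Dox and 1.77 and 1.76 without. Both of its Etv5 arrays without Dox lay below both with Dox.

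Levels across the series placed the members' change differently for different members. Against the 10 group means of the 5 other lines, the Tcl1 mean without Dox was below all 10 for 42 members and within their range for 34. The Ctbp2 mean without Dox was above all 10 for 33 and within their range for 45. Both held for 20 members, only the first for 22, only the second for 13 and neither for 23. The choice itself favours a low Tcl1 mean and a high Ctbp2 mean without Dox. The same counts were not made over all probes within the limits, so no background is given. With Dox, the Tcl1 mean was within the range of the other lines for 46 members, below it for 18 and above it for 14. The Ctbp2 mean with Dox was within it for 60, below it for 18 and above it for 0.

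The median deviation of the members from a baseline was also taken for each array. The baseline of a member was its own mean over the arrays with Dox of the lines other than Tcl1 and Ctbp2. It was -0.35 and -0.30 on the Tcl1 arrays without Dox and 0.09 and 0.05 on those with Dox. On the Ctbp2 arrays it was 0.21 and 0.24 without Dox and -0.18 and -0.18 with Dox. The Etv5 arrays lay at 0.12 to 0.16 and the Tbx3 arrays at 0.10 to 0.20, in both conditions. The arrays of the Jarid2, Jmjd2c and Mettl5 lines lay at -0.10 to -0.06, also in both conditions. By this median the members were higher in the Etv5 and Tbx3 lines than in the latter 3 with or without Dox, which is a difference between slides as well as between lines, and the 2 cannot be told apart.

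The Tbx3, Jarid2, Jmjd2c and Mettl5 responses had no threshold in the choice. They were tested with limma on the loess ratio, adjusted by Benjamini-Hochberg over 28884 probes. The fit pools the spread of each probe over all 28 arrays. Replicates differed more in the Tbx3 line (SD 0.22 to 0.24) than in the other lines (0.08 to 0.14). The SE and p-values of the Tbx3 line can thus understate that line's own spread. In the Tbx3 line 5 of 78 members (6.41%) passed, against 7.16% of all probes tested. Of these 4 rose and 1 fell, where 3.07% of all probes rose and 4.09% fell. In the Jmjd2c line 1 of 78 passed, a fall, against 0.377% of all probes, of which 0.332% rose and 0.0450% fell. In the Jarid2 line 0 of 78 passed against 0.0104%, and in the Mettl5 line 0 of 78 against 0.0242%. The members were drawn from the 16737 probes within the limits. Of these, 7.28% passed in the Tbx3 line, 0.137% in the Jmjd2c line, 0.00597% in the Jarid2 line and 0% in the Mettl5 line. The members' shares in the Tbx3 line were near the background. In all, 73 of 78 members passed in none of these 4 lines, and 7.47% of all probes tested passed in at least 1.

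At an unadjusted limma p under 0.05, 17 members were counted in the Tbx3 line, 4 in the Jarid2 line, 7 in the Jmjd2c line and 4 in the Mettl5 line. The shares of all probes were 24.8%, 4.85%, 6.99% and 5.08%. Arrays with and without Dox did not overlap for 30 members in the Tbx3 line (30.1% of all probes), 35 in the Jarid2 line (45.3%), 34 in the Jmjd2c line (43.3%) and 35 in the Mettl5 line (46.3%). The members' median loess change was 0.05, 0.03, -0.03 and -0.00 in these lines, in the same order.

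Z00005074-1 rose in the Tbx3 line, with loess ratios of -0.07 and -0.01 with Dox and 0.38 and 0.31 without. The change was 0.39 (SE 0.06, limma adjusted p = 0.00132), and the groups did not overlap. Without the array on the other slide it was 0.35 (limma adjusted p = 0.0223). In the Jarid2, Jmjd2c and Mettl5 lines its changes were 0.03, -0.13 and -0.14, none past the test. Fitted on the 4 Tbx3 arrays alone, its Tbx3 change of 0.39 had an SE of 0.11 (limma adjusted p = 0.996).

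Z00024913-1 was the only member past the test in more than 1 of these lines, and its directions were opposite. It rose in the Tbx3 line, with loess ratios of 1.54 and 1.67 with Dox and 1.84 and 1.88 without (change 0.26, SE 0.05, limma adjusted p = 0.00877). In the Jmjd2c line it fell, with 1.44 and 1.48 with Dox and 1.20 and 1.18 without (change -0.27, SE 0.05, limma adjusted p = 0.0249). With Cy3 alone its Tbx3 change was 0.17 (limma adjusted p = 0.226) and its Jmjd2c change -0.23 (limma adjusted p = 0.288). Leaving out any 1 of the 4 Jmjd2c arrays left the change at -0.29 to -0.24 with a larger SE of 0.07, and the adjusted p was then 0.148 to 0.246, so that 0 members passed in that line against 0.100% to 0.180% of all probes.

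The 3 other calls of the Tbx3 line differed in how far they rested on 1 array. Z00049051-1 rose by 0.33 (SE 0.06, limma adjusted p = 0.00516), from 0.09 and 0.15 with Dox and 0.44 and 0.45 without, but with the Cy3 channel alone its change was -0.09. Z00058380-1 rose by 0.57 (SE 0.14, limma adjusted p = 0.0251), from 0.71 and 0.31 with Dox and 1.42 and 0.73 without, where the highest value is that of the array on the other slide. Without that array its change was 0.22 (adjusted p = 0.479), and with Cy3 alone it was also 0.22 (adjusted p = 0.203). Z00023546-1 fell, from 0.86 and 1.06 with Dox and 0.42 and 0.71 without (change -0.40, SE 0.07, limma adjusted p = 0.00549), and its change was -0.25 (adjusted p = 0.111) without that array and -0.22 (adjusted p = 0.241) with median centring.

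The number of members past the test in the Tbx3 line moved with single arrays and with the scaling. The share of all probes that passed moved with the same arrays. Without the array on the other slide 3 members passed (3.85%), all rises, against 0.672% of all probes. Leaving out with-Dox replicate 1 gave 12 members (15.4%) against 19% of all probes, and leaving out with-Dox replicate 2 gave 8 (10.3%) against 9.53%. Without without-Dox replicate 2, 19 members passed (24.4%) against 26.7% of all probes. With median centring 13 members rose and 0 fell, where 11.1% of all probes rose and 0.814% fell. In the value table of the authors, which holds 50 members, 9 rose and 4 fell, against 7.93% and 8.10% of its probes. With Cy3 alone 1 rose and 2 fell, against 1.90% and 2.65%.

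A moderated F test in limma of whether the response differed among the Tbx3, Jarid2, Jmjd2c and Mettl5 lines, added after the data were seen, passed for 2 of 78 members against 2.07% of all probes. They were Z00005074-1 (adjusted p = 0.00328) and Z00024913-1 (adjusted p = 0.00274). Without the Tbx3 line it passed for 0 of 78 members, and for 28 of the 28884 probes.

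Correlations were taken on loess ratios after a probe's own mean in each line was subtracted, so that differences between lines do not enter them. Over the 16 arrays of these 4 lines, this correlation between 2 members had a median r of 0.02, and between 2 probes of all within the limits it was 0.01. Over the 12 arrays without the Tbx3 line the values were 0.04 and 0.00. The arrays share slides and a reference, and the values are a description.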

How the data were processed

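RNA of 14 groups of 2 samples was hybridised on 28 arrays. Per the file headers, Agilent Feature Extraction 9.5.1.1 (GE2-v5_95) read the spots. The deposited mean, background and processed signals are intensity values, and the processed ones were background-subtracted and dye-normalized by that software. Detection, saturation and quality columns, as deposited, are other values, flags of 0 or 1 per the file headers. The value table the authors deposited has log10 values for 25030 spots (50 members). Against the scanner values, 88.4% to 100% of its bright spots per array lay within 0.01 of the log10 Cy3 signal less the Cy5 reference's deviation from its mean. Its column medians were 2.25 to 2.28, and how it treats low values stays unknown.

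Processed ratios chose the members. Loess ratios used normexp (offset 50) and loess within each array in limma 3.58.1 (R 4.3.3, with data.table in version 1.17.8), with spots of a probe averaged. A probe was tested if some group had it well above background (Cy3) on each of its arrays. A group-means model (lmFit, eBayes; 14 residual and 4.88 prior degrees of freedom) was fitted over all arrays, two-sided, with a Benjamini-Hochberg limit of 0.05. The fit and the choice were tested on simulated data. With 2 arrays per group, their number limits the precision.

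The members and lists were chosen with earlier results of these data known. Named probes are the 10 with the largest smaller change, those past a test (up to 5 per line and direction) and the 2 on each side of each limit. The gene lists, cell type markers and named parts that need gene names were not run, as the files used here name no genes.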

Additional observations from a re-analysis of the deposited data

Results flagged for a closer look

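For 2 members the response to Dox removal differed among the Tbx3, Jarid2, Jmjd2c and Mettl5 lines by limma's moderated F test over 28884 probes, which is 2 of 78 against 2.07% of all probes, so the count is near the background. Without the Tbx3 array on the other slide it was 2 of 78 against 401 of 28884 probes. For Z00005074-1 the adjusted p was 0.00328, and 0.0181 without that array. For Z00024913-1 it was 0.00274, and 0.00527 without that array. The first rose in the Tbx3 line only among these 4, by the separate tests, and the second rose in the Tbx3 line and fell in the Jmjd2c line.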

How the results depend on the processing

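In the Tbx3 line 5 of 78 members passed the limma test, against 7.16% of all probes. Each alternative's count is given with the share of all its probes that passed. It was 13 with median centring (11.9%), 13 of the 50 members in the authors' deposited values (16.0%), 3 with Cy3 alone (4.55%), 8 over probes well above background on all arrays (10.8%), 3 with slide as a block (0.672%), which takes out the lone array, and 0 when its 4 arrays were fitted alone (0%). It was 3 to 19 on leaving out 1 array of the line (0.672% to 26.7%). Processed signals gave 6 (6.53%) and no filter 5 (3.01%). In the Jmjd2c line the 1 member (0.377%) became 2 on the authors' deposited values (1.38%), and 0 with median centring (0.0485%), with Cy3 alone (0.557%), with no filter (0.171%), when its 4 arrays were fitted alone (0.0900%) and on leaving out any 1 array of the line (0.100% to 0.180%). The Jarid2 and Mettl5 lines each gave 0 under all alternatives run, leaving out arrays included, except 1 on the authors' deposited values (0.296% and 0.611%). Z00049051-1 turned to -0.093 in the Tbx3 line with Cy3 alone (adjusted p = 0.798), against an adjusted p of 0.00293 to 0.996 over its other alternatives. The cause of these shifts was not tested. The number of members was 127 at a threshold of 0.2 (72 of them among the 78, since the Etv5 limit moved with it), 45 at 0.3 (44 shared) and 47 with changes from the authors' deposited values (46 shared), which hold 50 members. It was 58 on loess ratios (35 shared), and 89 to 109 on leaving out 1 Tcl1 or Ctbp2 array, with 62 to 71 shared. With loess, median centring and Cy3 alone, the members' median Tcl1 change was -0.279, -0.235 and -0.248, and the Ctbp2 one 0.285, 0.251 and 0.293. In the Etv5 line it was -0.056 with median centring and -0.055 on the authors' deposited values. These medians were recomputed after the data were seen.

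With a replicate block, 8 members passed in the Tbx3 line, against 11.3% of all probes, 1 in the Jmjd2c line, against 0.225%, and 0 in the Jarid2 and Mettl5 lines, against 0% and 0.00346%. Same-numbered arrays of a line deviated together with a correlation of 0.43 in the Tcl1 line and 0.166 in the Tbx3 line. In the other 5 of 7 lines it was -0.055 to 0.049. Nothing in the labels ties the numbers, so these arrays were not taken as pairs.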
